A study of Mus musculus with 3 samples.

Results

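Conventional type 1 dendritic cells (cDC1) were examined in single splenocytes of 3 libraries: a control and an Ang II library of C57BL/6 mice and a library of B6.SLE123 mice. The cells were chosen by their measured RNA. A barcode was taken as a cDC1 with at least 3 unique molecular identifiers (UMIs) of Cst3, at least 3 UMIs summed over the markers Xcr1, Clec9a, Naaa and Cadm1, no UMI of Cd79a, Cd3e or Siglech, and under 3 UMIs summed over the migratory markers Fscn1, Ccr7 and Cacnb3. The rule found 245 cDC1 among 47453 kept cells, with 58 in the control, 61 in the Ang II and 126 in the B6.SLE123 library.

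The control library combined male C57BL/6 mice that had sham surgery with female C57BL/6 mice. A minipump time of 2 weeks is labelled for this library too. The Ang II library pooled C57BL/6 mice that carried minipumps for 2 weeks with angiotensin II, labelled as 490 µg/kg/min, and that were given either placebo or 2-HOBA, a scavenger of isolevuglandins. The B6.SLE123 library pooled mice of that lupus-prone congenic strain, female per the study's methods, given 2-HOBA or placebo for 6 weeks. The mice were 12 to 14 weeks old, 3 mice were combined per condition, and each library held 2 conditions. T cells had been removed from every spleen with CD3 microbeads. The cells carried 6 hashtag antibodies per library that the sources used here do not tie to a condition, so the 2 conditions of a library were not separated and 2-HOBA was not compared. Each group was 1 library, so no difference could be tested, and all intervals are exact 95% intervals that cover counting error only. The title of the Ang II library names no sex. Strain, sex mix, treatment and library cannot be told apart.

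cDC1 are the dendritic cells that take up dying cells and present their antigens on MHC class I to CD8 T cells, which is called cross-presentation. Their development depends on the transcription factors IRF8 and BATF3. XCR1 is a chemokine receptor that draws them to cells making XCL1, and CLEC9A binds actin filaments exposed on dead cells. NAAA is a lysosomal amidase and CADM1 a cell adhesion molecule. Other conventional dendritic cells (cDC2) mainly present to CD4 T cells.

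The rule alone did not give a uniform set of cells. A UMI of Naaa was found in 98.3%, 91.8% and 96.8% of members in the order control, Ang II, B6.SLE123, a gene the rule itself used. A UMI of Clec9a was found in 58.6%, 59.0% and 61.1%, and a UMI of Xcr1 in 44.8%, 45.9% and 50.8%. Neither Xcr1 nor Clec9a was seen in 16, 19 and 32 members. Of those, 15 of 16, 15 of 19 and 12 of 32 held at least 5 UMIs of Lyz2, the lysozyme gene of monocytes and macrophages, against 2 of 42, 3 of 42 and 3 of 94 of the members with Xcr1 or Clec9a. At least 5 UMIs of the neutrophil genes S100a8 and S100a9 were found in 5 members, all in the B6.SLE123 library. At least 5 UMIs of the C1q genes were found in a further 7 members of that library and in 2 of the Ang II library. The C1q genes are typical of macrophages, and the paper reported them in monocyte-related dendritic cells of the spleen. So the data went against the label for part of the members, and each result is given also for 167 restricted members, 40, 39 and 88 per library, that had Xcr1 or Clec9a and under 5 UMIs of each of these 3 gene groups. The restriction was chosen after the values were seen. It also left out 1, 2 and 16 members with under 5 UMIs of each group, for the lack of Xcr1 and Clec9a alone.

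**Figure D1:**
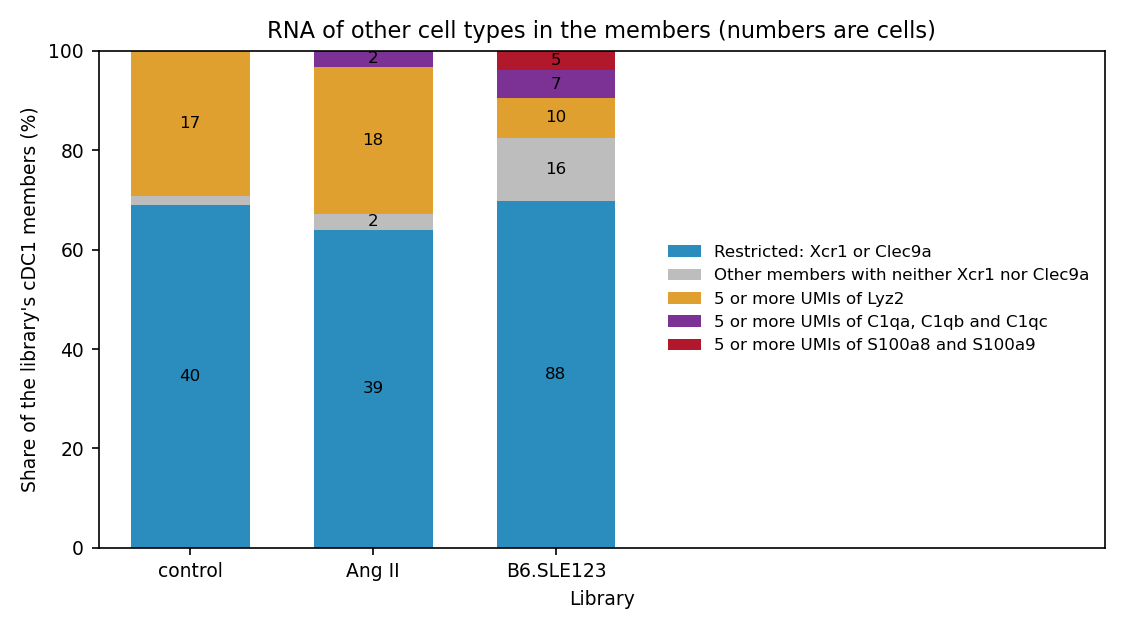
Bars show the share (%) of each library's cDC1 members by the RNA they held, with the number of cells in each piece (a single cell of the control library is not labelled). Restricted members were 40, 39 and 88, members with at least 5 UMIs of Lyz2 were 17, 18 and 10 of the others, and S100a8 and S100a9 reached 5 UMIs in 5 members of the B6.SLE123 library.

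The 20 cDC1 genes outside the rule summed to 5261, 5336 and 5857 CPM (counts per 1e6 summed UMIs of the class) in them, in the order control, Ang II and B6.SLE123, against 3739, 3339 and 4483 CPM in all members, 350, 453 and 410 CPM in cDC2 and 642, 662 and 539 CPM in B cells. A list of 9 monocyte genes summed to 10029, 10140 and 4655 CPM in all members and to 226, 264 and 203 CPM in the restricted members. A list of 8 neutrophil genes summed to 53.2, 171 and 20185 CPM in all members and to 21.0, 140 and 78.7 CPM in the restricted members, with B cells at 370, 817 and 999 CPM. Lyz2 is on the monocyte list and S100a8 and S100a9 are on the neutrophil list, so these lower sums follow in large part from the restriction itself. The T cell list was at 0 in the control and Ang II members and at 9.78 CPM in the B6.SLE123 members.

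A member held a median of 4477.5, 5311 and 3359 UMIs, lowest in the B6.SLE123 library, and a restricted member 3731, 3717 and 3120 UMIs. Summed over members, the libraries gave 281880, 350113 and 511084 UMIs. Between 415 and 496 barcode sequences were shared by any pair of libraries, and no cDC1 member had the barcode of a member of another library. Cells with exactly 3 rule marker UMIs, just inside the rule, numbered 17, 22 and 33, with 346, 367 and 528 CPM of Irf8 and 19116, 15377 and 5810 CPM of Lyz2. Cells with 2, just outside, numbered 43, 37 and 67, with 220, 182 and 213 CPM of Irf8 and 21048, 17573 and 8966 CPM of Lyz2.

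cDC1 made up a larger share of the B6.SLE123 library than of the control library. The share of kept cells was 0.363% (0.276 to 0.470) in the control, 0.436% (0.334 to 0.560) in the Ang II and 0.719% (0.600 to 0.856) in the B6.SLE123 library. Set against the control, B6.SLE123 gave a log2 ratio of 0.98 (0.53 to 1.46), and Ang II gave 0.26 (-0.28 to 0.81). Among barcodes with at least 2000 UMIs, each thinned to 2000, the Ang II ratio was -0.52 (-1.32 to 0.31). Kept cells held a median of 1792, 2771 and 1956 UMIs, so this minimum left out a larger part of the control and B6.SLE123 cells. The thinned ratio is therefore not one over the same cells. Restricted members gave 0.251%, 0.279% and 0.502%, with log2 ratios of 1.003 (0.45 to 1.58) and 0.15 (-0.52 to 0.83). The interval of the Ang II ratio held 0 in each of these cases, so a difference was not detectable at this depth. The upper limit on genes left out 14 Ang II barcodes and 1 control barcode that met the rest of the rule. They are not part of these ratios.

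Over the 6 hashtag populations of a library the share ran from 0.210% to 0.570% with a median of 0.322% in the control, from 0.220% to 0.939% with a median of 0.331% in the Ang II, and from 0.308% to 1.51% with a median of 0.591% in the B6.SLE123 library. The populations of the libraries therefore overlapped. In the B6.SLE123 library a single population, C0303, held 50 of the 126 members, and without it the share was 0.535%. In the Ang II library C0304 held 24 of 61, and without it the share was 0.324%.

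**Figure D2:**
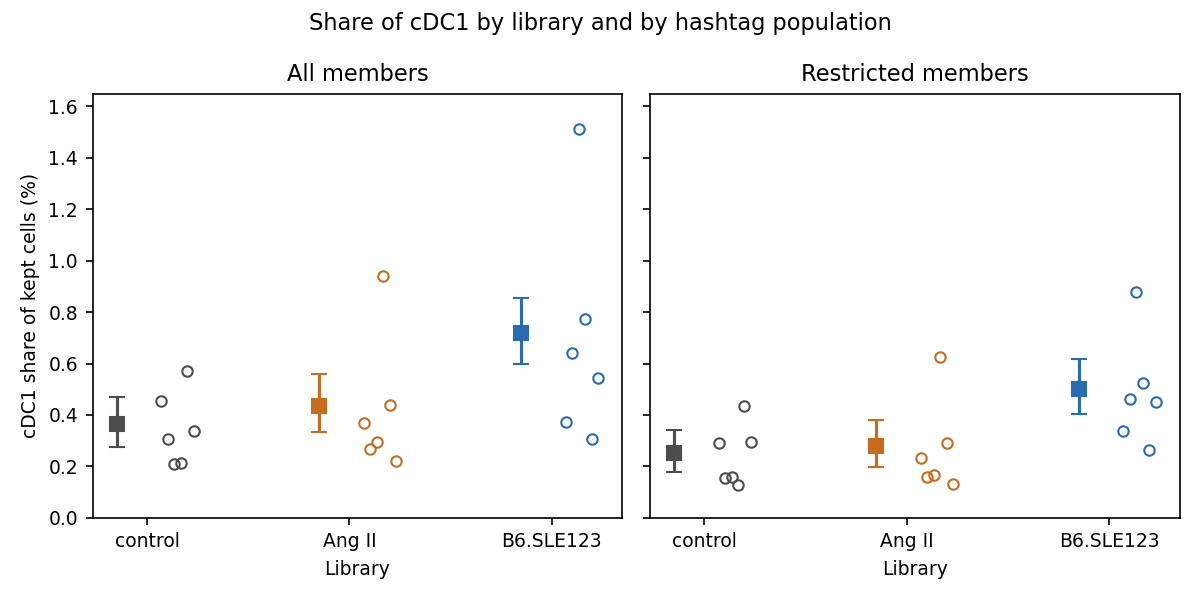
The cDC1 share of kept cells (%) by library. Squares with bars are the library's share with its exact 95% interval, circles are the 6 hashtag populations; the left panel shows all members and the right the restricted members. The B6.SLE123 square is the highest in both panels, at 0.719% and 0.502%, while circles of the libraries overlap.

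The other dendritic cells of the spleen are set beside this. cDC2 were taken as cells with the same Cst3 minimum and exclusions, under 3 UMIs of the rule markers and at least 3 UMIs summed over Clec4a4, Cd209a and Clec10a. They too held monocyte genes, at 8765, 7212 and 3774 CPM for the list of 9, so their values are not those of a clean class. cDC2 made up 0.232%, 0.200% and 0.194% of kept cells, with a log2 ratio of B6.SLE123 to control of -0.26 (-0.97 to 0.46), and plasmacytoid dendritic cells gave -0.38 (-1.11 to 0.33). Both intervals held 0, and the difference between classes was not tested. Migratory dendritic cells, which express Ccr7 and move to the T cell zones, were 14, 22 and 40 cells, with a log2 ratio of B6.SLE123 to control of 1.38 (0.47 to 2.37). Among cDC1 and cDC2 together, cDC1 were 61.1% (50.5 to 70.9) in the control, 68.5% (57.8 to 78.0) in the Ang II and 78.8% (71.6 to 84.8) in the B6.SLE123 library, and with restricted members 51.9%, 58.2% and 72.1%.

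The genes that set cDC1 apart from cDC2 in every library describe the cells the rule chose. Highest by the lowest of the 3 log2 ratios were Chil3, Ifi205, Cxcl9, Apol7c, Cd8a, Ppt1, Cd24a, Aif1, Irf8 and Cd81. Chil3 was at 216, 523 and 501 CPM in all members but at 0, 5.19 and 0 CPM in restricted members. Ppt1, a lysosomal thioesterase, was at 1384, 1457 and 1836 CPM in restricted members and at 55.5, 107 and 47.1 CPM in cDC2. Cd8a, the CD8α chain carried by spleen cDC1, was at 405, 586 and 414 CPM against 0, 0 and 33.6 CPM. Lowest in cDC1 were Ltb, Tmem176b, Tmem176a, Cd7, Il2rg, H2-DMb2, Ms4a4c, Macf1, Ddit4 and Limd2. Ltb, the lymphotoxin β gene, was at 26.3, 15.6 and 12.1 CPM in restricted members and at 283, 462 and 336 CPM in cDC2.

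Irf8, the factor that cDC1 depend on, was at 1047, 913 and 1035 CPM and Batf3 at 337, 259 and 339 CPM in restricted members. Id2, which holds back the plasmacytoid programme, was at 542, 513 and 681 CPM. Of 12 transcription factors 6 had at least 50 UMIs in B6.SLE123 and control together, and none passed 2-fold in either direction, where 3.68% of all genes did, with a median log2 ratio of 0.09 in restricted members against 0.07 over all genes tested. In Ang II against control 4 were tested and none passed, where 1.74% of all genes did, with a median of -0.16 against -0.02. Across the 6 hashtag populations Irf8 ran from 692 to 1293 CPM in the control, from 605 to 1277 CPM in the Ang II and from 683 to 1192 CPM in the B6.SLE123 library, so the populations overlapped. Flt3, the receptor for the growth factor that sustains dendritic cells, was at 231, 192 and 212 CPM.

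Of 20 genes of MHC class I and cross-presentation 17 were tested in restricted members, and none passed 2-fold in either comparison. Over all genes 3.68% passed in B6.SLE123 and 1.74% in Ang II, so a count of 0 is near the background. Wdfy4, which cDC1 need for cross-presentation, was at 779 CPM in restricted control members, 550 CPM in Ang II and 602 CPM in B6.SLE123, log2 ratios of -0.50 and -0.37. The immunoproteasome subunit Psmb9 was at 921, 752 and 1219 CPM, and Psmb8 at 968, 975 and 1207 CPM. Of 12 MHC class II genes 11 were tested in B6.SLE123 against control and 10 in Ang II, and none passed 2-fold. Cd74, the invariant chain, was the most abundant of them, at 40270, 42684 and 44875 CPM, and H2-Aa was at 12868, 12534 and 13896 CPM. H2-Oa, which tempers peptide loading in endosomes, had the largest ratio of the list, at 445 CPM in B6.SLE123 against 274 CPM in the control, a log2 ratio of 0.70.

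B6.SLE123 was compared with the control gene by gene. Of 1989 genes with at least 50 UMIs over both libraries, 68 were at least 2-fold higher in B6.SLE123 cDC1, a background of 3.42%, and 37 at least 2-fold lower, a background of 1.86%, or 5.28% in either direction. Restricted members gave 29 higher (2.37%) and 16 lower (1.31%) of 1222 genes, 3.68% in either direction. Without population C0303 of B6.SLE123, 22 genes were higher in place of 68. Of the 68 higher genes, 43 fell under 50 UMIs in restricted members, and 17 of the other 25 also passed there. Of the 37 lower genes 24 fell under 50 UMIs, and 9 of the other 13 passed. The 10 highest genes in all members were S100a9, S100a8, Camp, Ngp, Lcn2, Ltf, C1qb, Ftl1-ps1, Fcgr4 and Gm42031. The first 6 are neutrophil genes and C1qb is a C1q gene, and they came from few cells. The paper reported C1q in monocyte-related dendritic cells, where it also examined Fcgr4. The 8 genes of the macrophage list summed to 78.0, 406 and 593 CPM in all members. Of that, the 3 C1q genes held 0, 223 and 558 CPM. Which cell type the C1q RNA came from was not tested. S100a8 had 3 UMIs in the control and 3380 in B6.SLE123, found in 7.14% of the members, and 2 and 1 UMIs in restricted members.

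Cd207, the gene of langerin, had the largest ratio of the 20 cDC1 genes outside the rule. Langerin is a lectin that binds glycans of pathogens and is carried by Langerhans cells and by some cDC1. Cd207 had 8 UMIs in the control, 9 in the Ang II and 140 in the B6.SLE123 library, or 28.4 (12.3 to 55.9), 25.7 (11.8 to 48.8) and 274 (230 to 323) CPM. It was found in 13.8%, 11.5% and 47.6% of the members. The log2 ratio of B6.SLE123 to control was 3.27 (2.25 to 4.51), and in restricted members, with 8, 9 and 120 UMIs, 3.11 (2.08 to 4.35). All 6 hashtag populations of B6.SLE123 held it, at 116 to 766 CPM with a median of 304 CPM, while those of the control ran from 0 to 48.2 CPM and those of Ang II from 0 to 93.7 CPM. The B6.SLE123 populations did not overlap with those of either other library. In restricted members they ran from 183 to 799 CPM, above the control at up to 115 CPM but overlapping with Ang II at up to 300.5 CPM. No UMI of Cd207 was found in cDC2 or B cells of any library.

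Cd207 lies on mouse chromosome 6 at 83671215 to 83677857 (GRCm38). The 150 bases before its RefSeq start, chr6:83677858-83678007 on the minus strand of GRCm38.p6, are shown because Cd207 had the largest ratio of its list. Capitals mark a match to the AP-1 motif TGANTCA (both strands searched), which ends at the start site.

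Cd207: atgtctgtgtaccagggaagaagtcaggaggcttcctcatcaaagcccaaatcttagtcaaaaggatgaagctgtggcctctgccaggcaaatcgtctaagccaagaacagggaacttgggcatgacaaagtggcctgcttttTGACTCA

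The same letters occur in the 250 bases before the start in 6.75% of 32851 mouse promoters, so the match is a description of this stretch.

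Ifitm2 encodes an interferon-induced membrane protein that limits the entry of viruses. In restricted members Ifitm2 had 21, 32 and 921 UMIs, or 110, 166 and 2786 CPM, and was found in 11 of 40, 12 of 39 and 85 of 88 cells. The log2 ratio of B6.SLE123 to control was 4.66 (4.04 to 5.36) in restricted members and 2.12 (1.89 to 2.34) in all members, where the Lyz2-rich cells of the control also held it. The restricted hashtag populations of B6.SLE123 ran from 1439 to 4484 CPM, and those of the control from 0 to 214 CPM. Ifitm2 was higher in other cells of the B6.SLE123 library too, and free RNA of those cells can add UMIs to cDC1. A UMI was found in 0.799%, 0.769% and 96.3% of B cells, at median depths of 1764, 2711 and 1933 UMIs, and how much of the cDC1 value came from free RNA was not tested. B cells had 5.405, 4.45 and 3725 CPM, a log2 ratio of 9.43, and cDC2 had 1377, 782 and 3471 CPM. Of its relatives, Ifitm3 was at 231, 384 and 306 CPM in restricted members and at 12.2, 7.95 and 82.0 CPM in B cells. Ifitm genes are alike in sequence, and how reads were divided between them was not tested.

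Ifitm2 lies on chromosome 7 at 140954837 to 140955987. Capitals in the 150 bases before its RefSeq start, chr7:140955962-140956111 on the minus strand of GRCm38.p6, mark a match to the interferon-stimulated response element, searched on both strands as GAAA, any 2 bases and GAAA again, 46 bases upstream.

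Ifitm2: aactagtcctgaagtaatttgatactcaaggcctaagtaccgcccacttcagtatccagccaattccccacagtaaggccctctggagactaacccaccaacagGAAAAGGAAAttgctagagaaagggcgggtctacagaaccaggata

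This motif occurs in 2.98% of the promoters.

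Few other interferon-response genes had enough UMIs to be compared. Of the 18 genes of that list 17 were in the files, 4 were tested in B6.SLE123 against control and none passed 2-fold, where 5.28% of all genes did, with a median log2 ratio of 0.39 against 0.04 over all genes. Ly6e was at 1810, 2007 and 2263 CPM and Bst2 at 158, 187 and 278 CPM in restricted members. Isg15 had 2, 6 and 24 UMIs there, under the minimum of 50, and Cxcl10 had 2, 0 and 0. Of the Ifi200 genes, which bind DNA and respond to interferon, Ifi205 was at 395, 503 and 493 CPM in restricted members and at 0.213, 0.251 and 0.296 CPM in B cells.

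Further genes were higher in B6.SLE123 cDC1, among them Ftl1-ps1 and Gm42031, which were higher in its B cells too. Gcsam, a signalling adaptor on the cDC1 list, was at 73.6, 124 and 172 CPM in restricted members, a log2 ratio of 1.23 (0.37 to 2.19), and had no UMI in cDC2. Ftl1-ps1, a copy of the ferritin light chain gene, was at 47.3, 72.6 and 1056 CPM, a log2 ratio of 4.48, while Ftl1 itself was at 2609, 2562 and 1074 CPM, a log2 ratio of -1.28. B cells gave 4.32 and -1.14 for the same pair. The sequences are near copies, and how reads were divided between them was not tested. Gm42031 had 4, 14 and 120 UMIs, a log2 ratio of 4.11, with 2.72 in B cells. Pmf1 (log2 ratio 1.98), Tgfbi (1.52), Jtb (1.52), Etfb (1.52), S100a6 (1.47) and Marc2 (1.42) completed the 10 highest of the restricted members. For Pmf1 the B cells gave -0.13 and for Etfb 0.28.

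**Figure D3:**
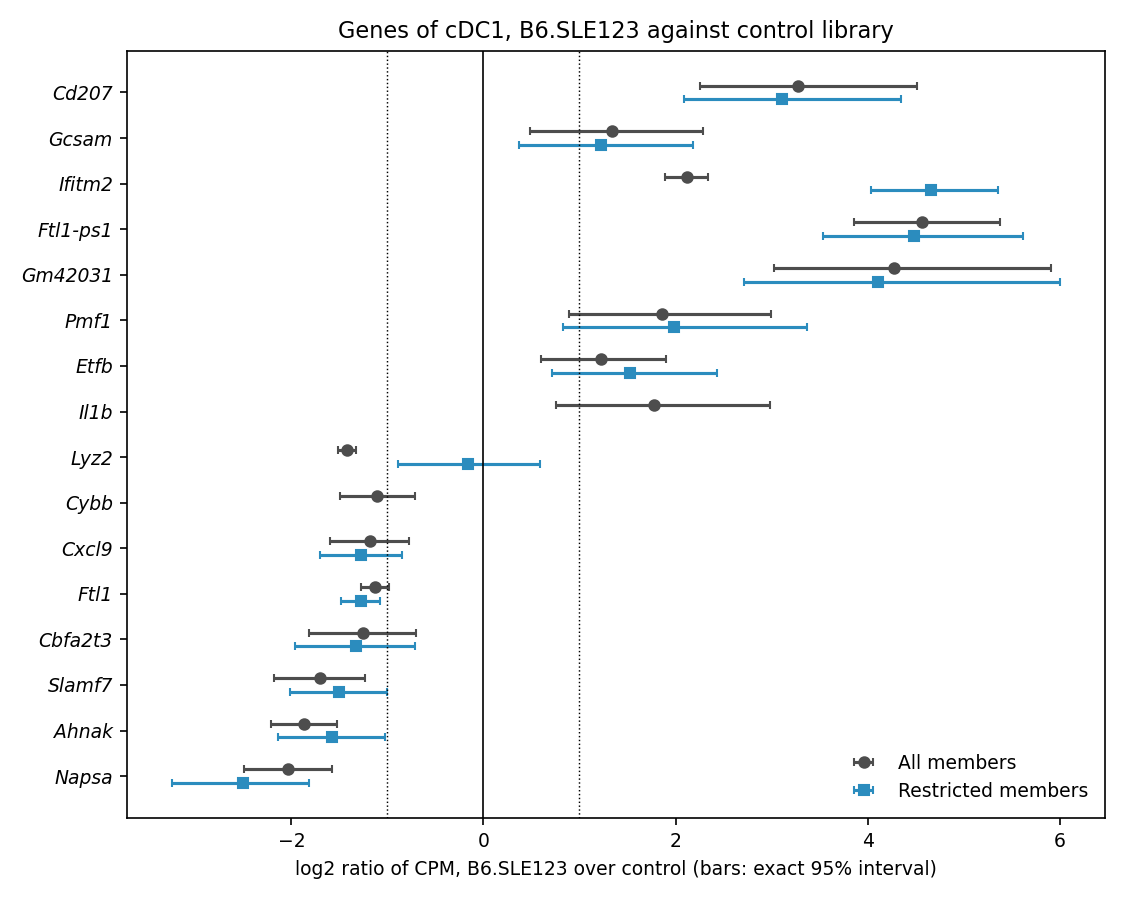
Log2 ratios of CPM, B6.SLE123 over control, with exact 95% intervals, for 16 genes chosen after their values were seen. Circles are all members and squares restricted members; a missing square means under 50 UMIs. Cd207 stands at 3.27 and 3.11, Ifitm2 at 2.12 and 4.66, Napsa at -2.03 and -2.50, and Lyz2 at -1.42 in all members; its restricted value follows from the restriction, which used this gene.

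Among the genes lower in B6.SLE123, Napsa, Slamf7, Cxcl9 and Apol7c were past 2-fold in restricted members. Napsa, an aspartic protease of the lysosome, was at 395 (310 to 495), 456 (366 to 562) and 69.6 (44.1 to 104) CPM, a log2 ratio of -2.50 (-3.25 to -1.81), found in 25 of 40, 22 of 39 and 15 of 88 cells. Its populations in B6.SLE123 ran from 22.5 to 119 CPM and those of the control from 0 to 539 CPM, so they overlapped through a single control population at 0. B cells did not share the difference, with 532, 527 and 616 CPM. Slamf7, a receptor of the SLAM family, was at 473, 404 and 166 CPM, a log2 ratio of -1.51 (-2.02 to -1.01), with -1.24 in cDC2 and -0.52 in B cells. Cxcl9, a chemokine that draws activated T cells and is induced by interferon γ, was at 600, 482 and 248 CPM, a log2 ratio of -1.27 (-1.70 to -0.85). Its populations ran from 0 to 1174 CPM in the control and from 58.6 to 457 CPM in B6.SLE123, so they overlapped widely. Its ratio over all members was -1.18, and -0.46 without population C0303 of B6.SLE123 or -0.56 without C0305 of the control. Apol7c, which acts in the release of antigen from phagosomes, was at 594, 441 and 257 CPM, a log2 ratio of -1.21, and its populations overlapped as well. Over all members its ratio was -0.96, and -0.09 without population C0303 of B6.SLE123.

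Apoe, an apolipoprotein made by macrophages, had 95 UMIs in the control, 182 in the Ang II and none in the B6.SLE123 members. Set against a floor of 3 counts in the B6.SLE123 members it was at least 57.4-fold lower in B6.SLE123, a log2 bound of -5.84 that moved to -5.08 without population C0301 of the control, which held 53 of the 95 UMIs, and to -4.97 without C0303 of B6.SLE123. Restricted members had 26, 18 and 0 UMIs, at least 15.1-fold lower with the same floor. Every control and Ang II population held it in all members, and no B6.SLE123 population did. The B cells of B6.SLE123 had 1408 UMIs of Apoe, or 83.3 CPM against 132 CPM in the control, a log2 ratio of -0.67, and cDC2 had 32, 50 and 2 UMIs.

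Atp2b1, Ccl6, Ahnak, Emb, Fn1 and Trf were also among the 10 lowest genes in all members. Fn1 was at 589, 540 and 176 CPM in all members and had no UMI in restricted members. Ccl6, a chemokine of myeloid cells, was at 546, 557 and 147 CPM in all members and at 63.1, 31.1 and 48.4 CPM in restricted members. In restricted members the lowest also held Anxa2 (log2 ratio -1.86), Ahnak (-1.57), Cbfa2t3 (-1.33), Flna (-1.18) and Ass1 (-1.14). Cbfa2t3, a transcriptional corepressor of early dendritic cells, was at 289, 166 and 115 CPM. The cells of high Lyz2 were 17 of 58 control members and, with those of C1q or S100 RNA set aside, 10 of 126 B6.SLE123 members. The restricted members leave them out. How much of the values over all members came from these cells was not tested.

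The B6.SLE123 strain carries lupus susceptibility intervals on chromosomes 1, 4 and 7. Of the 45 genes past 2-fold in restricted members, 8.89% were on chromosome 1, 6.67% on chromosome 4 and 11.1% on chromosome 7, against 5.89%, 6.38% and 8.51% of the genes tested. The called genes were 4, 3 and 5, counted over whole chromosomes. Whether genes gathered within the intervals themselves was not tested. Slamf7 and Marc2 lie on chromosome 1 and Ifitm2, Napsa, Ftl1 and Etfb on chromosome 7.

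**Figure D4:**
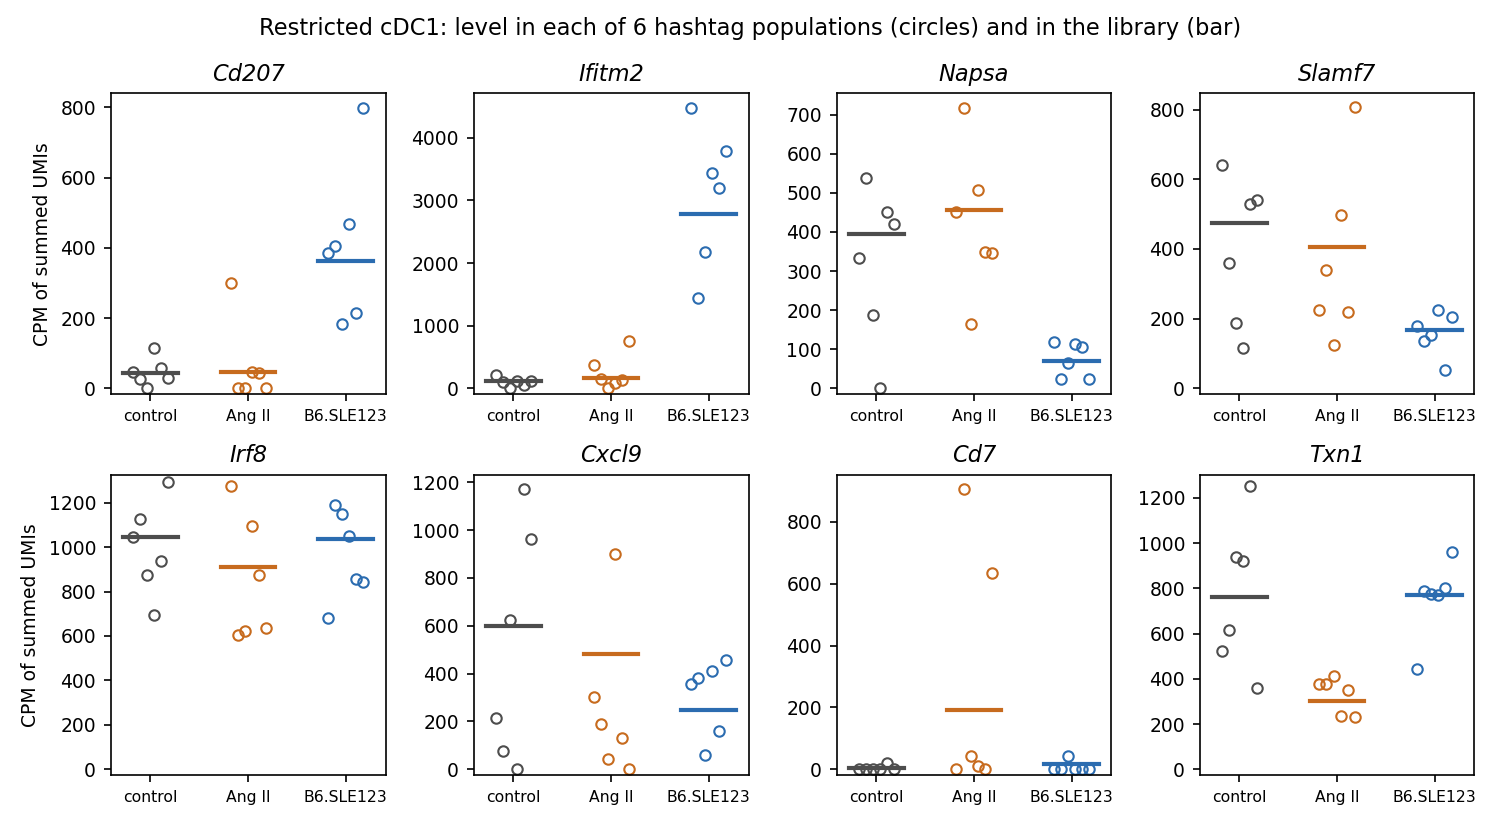
CPM of 8 genes in restricted cDC1. Circles are the 6 hashtag populations of each library, with 3 to 29 cells each, and bars the library's summed level. Cd207 and Ifitm2 were higher in all B6.SLE123 circles than in any control circle, Napsa was at most 119 CPM in B6.SLE123 circles, Irf8 overlapped throughout, and Txn1 ran from 231 to 414 CPM in Ang II circles.

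The summed level of cell cycle genes was higher in B6.SLE123 than in the other libraries. The list of 16 genes summed to 688, 577 and 1865 CPM in all members and to 758, 679 and 1213 CPM in restricted members. Over all members 7 were tested and 6 were past 2-fold higher, against 3.42% of all genes, with a median log2 ratio of 1.55. Birc5, of the chromosomal passenger complex, was at 10.6, 11.4 and 113 CPM, and Ube2c, which helps end mitosis, at 24.8, 8.57 and 166 CPM. In restricted members only Hmgb2 was tested, at 368, 296 and 529 CPM. With each cell thinned to 2000 UMIs, cells with at least 2 UMIs of the list without Pcna, Mcm5 and Hmgb2 were counted. They were 3 of 47, 3 of 55 and 14 of 85 members, or 6.38% (1.34 to 17.5), 5.45% (1.14 to 15.1) and 16.5% (9.31 to 26.1). Thinning left out 11, 6 and 41 shallower members, and without it the shares were 8.62%, 9.84% and 19.8%. With no upper limit on genes per barcode the thinned Ang II share was 17.4%, so its gap to B6.SLE123 depended on that limit. Restricted members gave 3 of 31, 3 of 34 and 5 of 58, or 9.68%, 8.82% and 8.62%, with 9, 5 and 30 cells left out. The share of cells was level there. The summed level was not. That sum holds all 16 genes and all restricted members, while the share leaves out Pcna, Mcm5 and Hmgb2 and the shallower cells. Why the 2 measures differ was not tested. By the thinned share B cells gave 1.29%, 0.836% and 7.52%.

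Ang II was compared with the control in the same way. Of 1642 genes with at least 50 UMIs over both libraries, 28 were at least 2-fold higher in Ang II, a background of 1.71%, and 11 at least 2-fold lower, a background of 0.670%, or 2.38% in either direction. Restricted members gave 8 higher (0.930%) and 7 lower (0.814%) of 860 genes, 1.74% in either direction. With no upper limit on genes per barcode, 138 genes were higher and 19 lower. Of the 28 higher genes 23 fell under 50 UMIs in restricted members and 3 of the other 5 passed there, and of the 11 lower genes 7 fell under 50 UMIs and 3 of the other 4 passed. Both comparisons used the same control library.

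Txn1, the gene of thioredoxin, which reduces disulfides in oxidized proteins, was the lowest gene in Ang II over all members and came after Ahnak and Arsb in restricted members. It had 194 UMIs in the control, 76 in the Ang II and 414 in the B6.SLE123 members, or 688, 217 and 810 CPM. The log2 ratio of Ang II to control was -1.66 (-2.07 to -1.27), and in restricted members, at 763, 301 and 768 CPM, -1.34 (-1.81 to -0.89). The hashtag populations of Ang II ran from 164 to 333 CPM with a median of 202 CPM, and all lay under those of the control, at 391 to 1016 CPM, and of B6.SLE123, at 565 to 949 CPM. In restricted members the ranges of Ang II, 231 to 414 CPM, and of the control, 361 to 1252 CPM, overlapped. B cells had 109, 80.6 and 198 CPM, a log2 ratio of Ang II to control of -0.43, and cDC2 gave -0.88. Whether the gap differs between the classes was not tested. Txn1 lies on chromosome 4 at 57943373 to 57956411.

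The other antioxidant genes tested stayed within 2-fold of the control. Of 15 genes of that list 7 were tested in Ang II against control over all members. Txn1 alone passed 2-fold, where 2.38% of all genes did, with a median log2 ratio of 0.03 against 0.02 over all genes. In restricted members Prdx1, a peroxiredoxin, was at 389, 498 and 520 CPM and Gpx1, a glutathione peroxidase, at 1799, 1685 and 2236 CPM. In B6.SLE123 against control 10 were tested over all members and 7 over restricted members, with medians of 0.13 and 0.29 against 0.04 and 0.07. None passed, where 5.28% and 3.68% of all genes did, so a count of 0 is near the background. The NADPH oxidase makes superoxide. Cybb, its catalytic subunit, was past 2-fold lower in B6.SLE123 over all members, with 121, 135 and 102 UMIs. Restricted members had 0, 11 and 2 UMIs of Cybb. The partner subunit Cyba was at 1105, 856 and 1077 CPM in restricted members, within 2-fold in both comparisons.

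Further genes lower in Ang II were Plaat3, Arsb, Cd83, Gm26917, Sp140, Trpm2, Tubb2a, Tuba1c and Emc6, with log2 ratios from -1.62 to -1.03. Arsb, a lysosomal sulfatase, was at 200, 67.4 and 139 CPM in restricted members, a log2 ratio of -1.57 (-2.60 to -0.63). Ahnak, a large scaffold protein, was at 405, 130 and 136 CPM in restricted members, a log2 ratio of -1.64 (-2.36 to -0.98), and its UMIs lay in 8, 4 and 17 cells. Over all members its ratio was 0.22. Cd83, a surface protein that goes up on maturing dendritic cells, had 36, 17 and 70 UMIs, a log2 ratio of -1.40 (-2.32 to -0.53). Its populations overlapped, and without population C0305 of the control, which held 20 of the 36 UMIs, the ratio was -0.68. Of 15 genes of co-stimulation and maturation, Cd83 and Cd86 were the 2 tested in Ang II against control. Cd86 was at 153, 176 and 185 CPM in restricted members. Il12b, a chain of interleukin-12, had 5, 0 and 1 UMIs, and Cd80 had 3, 3 and 5. Malat1, a nuclear RNA, was at 16166, 8017 and 16382 CPM in restricted members, a log2 ratio of -1.01 in Ang II, with 0.29 in B cells.

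The highest genes in Ang II over all members were Cd7, Samsn1, Ms4a4a, AB124611, Cd300c2, Igsf6, Ifi203, Ddit4, Cd209a and AY036118. Cd7 and Cd209a are also genes of cDC2. Cd7 had 3, 59 and 14 UMIs in all members, a log2 ratio of Ang II to control of 3.98 (2.37 to 6.30), against 511, 649 and 915 CPM in cDC2. In restricted members its 37 Ang II UMIs lay in 4 cells. Cd209a had 32, 102 and 17 UMIs, a log2 ratio of 1.36, which ran from 0.26 without population C0306 of Ang II to 2.74 without C0305 of the control. Its 30 UMIs in restricted Ang II members lay in 3 cells. The list of 9 cDC2 genes summed to 312, 551 and 184 CPM in all members and to 21.0, 213 and 72.6 CPM in restricted members, against 2188, 1813 and 2146 CPM in cDC2. Its part in these genes was not tested. Ms4a4a had 12, 50 and 33 UMIs in all members and none in restricted members.

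The highest genes of the restricted Ang II members were S100a6 (log2 ratio 1.94), Zyx (1.39), Ube2f (1.28), Ctsh (1.17), Ndufb1-ps (1.10), Atp5k (1.09), Hspa1a (1.07) and Tcf25 (1.02). Zyx, a protein of focal adhesions, was at 78.9, 207 and 181 CPM and S100a6, a calcium-binding protein, at 89.4, 342 and 248 CPM. For S100a6 the B cells gave -0.19 and the cDC2 -0.45. Hspa1a, a heat shock gene that can go up while tissue is handled, was at 84.2, 176 and 212 CPM, and B cells gave a log2 ratio of 2.04 in Ang II. Hspa1a was past 2-fold in restricted B6.SLE123 members too, at a log2 ratio of 1.33 to the same control. Of the 15 immediate early genes 10 were tested in Ang II against control over all members. Hspa1a was the 1 past 2-fold, where 2.38% of all genes were.

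**Figure D5:**
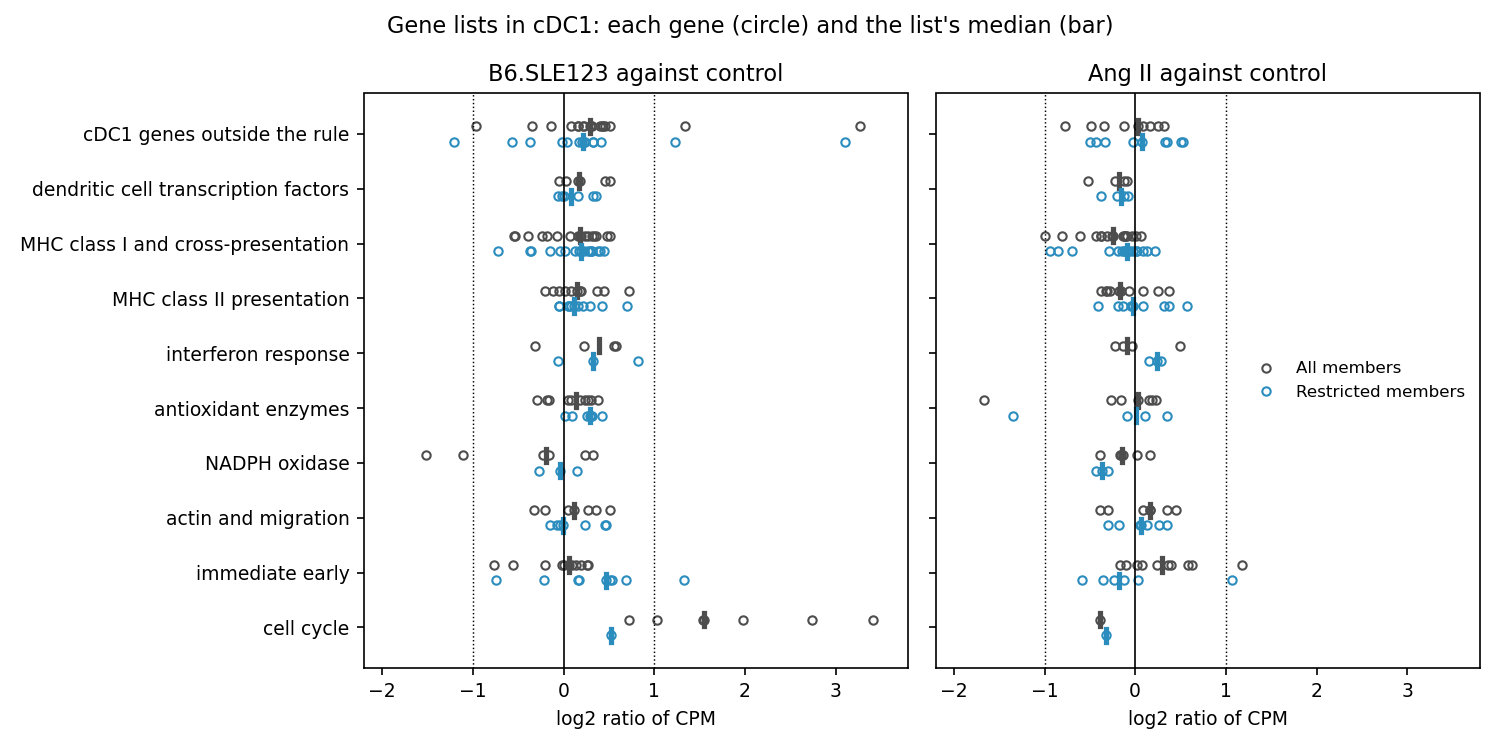
Log2 ratios of CPM to the control for genes of 10 lists with at least 50 UMIs over both libraries, B6.SLE123 in the left panel and Ang II in the right. Each circle is a gene and each bar a list's median, dark for all members and blue for restricted members; dotted lines mark 2-fold. The cell cycle list had a median of 1.55 in B6.SLE123 over all members, and Txn1 is the circle far to the left among the antioxidant enzymes in Ang II.

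Receptors for microbial and dead-cell ligands were measured with few UMIs. Tlr3, which binds double-stranded RNA and is high in cDC1, was at 99.95, 62.2 and 115 CPM in restricted members, and Tlr11, which binds profilin of parasites, at 105, 119 and 118 CPM. Havcr2, a receptor for phosphatidylserine on dying cells, was at 237, 337 and 278 CPM, with log2 ratios of 0.23 in B6.SLE123 and 0.51 in Ang II. Tlr7, which binds single-stranded RNA, had no UMI in restricted members of any library, which allows up to 3 counts per library. Il1b had 9, 23 and 56 UMIs over all members, a log2 ratio of 1.78 (0.75 to 2.98) in B6.SLE123 that moved to 0.85 without population C0303, and 8, 9 and 33 UMIs in restricted members.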

How the data were processed

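Splenocytes of 3 libraries were measured by droplet single-cell RNA sequencing from the 5′ end, with hashtag antibodies. The deposited files hold UMI counts per gene and barcode, which come from the authors' run of Cell Ranger (version 6.0.0 in the file headers) on mm10, as the submitters' processing notes name it. The annotation release and the hashtag assignment are not given in the sources used here. A kept barcode had over 200 and under 3500 genes, under 15% mitochondrial UMIs and a top hashtag of at least 3 times the second, which also removed doublets of different hashtags; no doublet caller was run. Counts were summed per library and class and divided by the class total (CPM). Intervals of levels are exact Poisson, of ratios exact conditional, of shares Clopper-Pearson. No p-value was computed, since each group is 1 library. A gene entered a comparison with at least 50 UMIs over both libraries, and the text calls it past 2-fold at a ratio of 2 or more in either direction. Named genes were the 10 highest and 10 lowest ratios of each comparison, for restricted members too, without immunoglobulin, T cell receptor, sex-linked marker and gate genes, plus genes of the lists; 1 gene that the rule names is not reported here. For cDC1 against cDC2 the 10 at each end were taken from 1145 genes. Other genes named were chosen after their values were seen. The members and lists were chosen with earlier results of these data known. Positions came from GENCODE vM21 (GRCm38), matched by Ensembl ID for 32158 of 32285 genes, and promoters from RefSeq (GRCm38.p6). Python 3.11.15, NumPy 2.4.6, SciPy 1.17.1, pandas 2.3.3, R 4.3.3, edgeR 4.0.16 (TMM) and DESeq2 1.42.0 (size factors) were used, the last 2 for scaling alternatives alone, and the scripts were tested on simulated data. Alternatives changed the limits, rule, scaling, thinning, UMI minimum and weighting, and left out each hashtag in turn.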

Additional observations from a re-analysis of the deposited data

Results flagged for a closer look

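Barcodes with more genes than the upper limit of 3500 were left out as likely to hold more than 1 cell, and some of them met every other condition of the cDC1 rule. The Ang II library had 14 such barcodes, B6.SLE123 had 5 and the control had 1, with median UMI counts of 18793, 16519 and 15712. They were among 132, 190 and 35 barcodes over the limit. The libraries differ in depth, with a median of 2842, 2082 and 1852 UMIs over all barcodes in that order. The barcodes that met the rule were looked at because they are signal outside the cells described, above the control. With them included, 138 genes were past 2-fold higher in Ang II cDC1 in place of 28, and the share of Ang II members with cell cycle UMIs was 17.4% in place of 5.45%.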

How the results depend on the processing

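No paired analysis was possible because each group is 1 library and no result comes from a test. Of 1990 gene values under the alternatives 1774 moved by less than their interval, 213 moved further and 3 reversed. S100a8 in B6.SLE123 reversed to -1.84 with members of Xcr1 or Clec9a and to -1.80 with restricted members, which rest on at most 2 UMIs in each of both libraries and on a restriction that used S100a8, and Ddit4 in Ang II reversed to -0.74 with 5 or more rule marker UMIs. Of 383 list medians 370 stayed and 13 moved. The cDC1 share of kept cells, in the order control, Ang II and B6.SLE123, was 0.633%, 0.701% and 1.10% with 2 or more rule marker UMIs, 0.232%, 0.229% and 0.417% with 5 or more, 0.144%, 0.206% and 0.469% with the gene limits read as UMIs, 0.263%, 0.300% and 0.537% with members of Xcr1 or Clec9a, and 0.251%, 0.279% and 0.502% with restricted members. Among conventional dendritic cells it was 76.5%, 81.0% and 85.8% with 2 or more marker UMIs and 48.1%, 50% and 67.0% with 5 or more. It was 100% in Ang II with limits read as UMIs, and 71.2% in B6.SLE123 with barcodes of at least 2000 UMIs, each thinned to 2000. Thinning gave an Ang II share of 0.277% and turned the Ang II log2 ratio to -0.52. Limits read as UMIs gave a B6.SLE123 log2 ratio of 1.71. Leaving out 1 hashtag at a time gave shares of 0.316% to 0.390% in the control, 0.324% to 0.478% in Ang II and 0.535% to 0.790% in B6.SLE123, while the B6.SLE123 log2 ratio ran from 0.56 to 1.19 and that of Ang II from -0.17 to 0.47. Genes past 2-fold in B6.SLE123 were 274 higher and 180 lower with at least 20 UMIs, 25 and 15 with at least 100, 37 and 16 with members of Xcr1 or Clec9a, and 29 and 16 with restricted members, and 80 were lower with cells weighted equally. In Ang II they were 228 and 106 with at least 20 UMIs, 8 and 2 with at least 100, 138 and 19 with no upper gene limit, and 8 and 7 with restricted members, 5 higher with 5 or more marker UMIs, 11 higher with members of Xcr1 or Clec9a, and 18 lower with cells weighted equally. Leaving out 1 hashtag gave 22 to 78 higher and 24 to 50 lower in B6.SLE123, and 21 to 37 higher and 5 to 15 lower in Ang II. The 22 came without C0303 of B6.SLE123, the 24 without C0301 of the control, and the lower Ang II counts of 5 and 6 without C0305 of the control and C0303 of Ang II. The cell cycle share was 17.4% in Ang II with no upper gene limit and 8.62% in B6.SLE123 with restricted members. The cause of these moves was not tested. TMM and DESeq2 size factors kept each count of genes within 1.5 times. The 40 and 39 restricted cells of the control and Ang II limit what genes of low level can show.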
